A study of Mus musculus with 12 samples.

Results

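The comparison described here asks whether cortex of mice with a floxed STING gene responded to injury differently from cortex of control mice. For every gene it takes the change from the uninjured to the injured side in the floxed mice and subtracts the same change in the controls. It used all 12 libraries of the series, and its members are the 16836 genes with enough counts to be tested, of 55487 in the count table. All mice received a controlled cortical impact (CCI), a blow to the exposed brain surface by a driven piston, and RNA was taken 2 hr later from cortex on the side of the impact (ipsilateral) and on the opposite side (contralateral). The control group, called wt here, had the genotype CX3CR1cre-er/+, and the group called cKO had CX3CR1cre-er/+ with STING fl/fl. Each genotype and side had 3 libraries of bulk RNA. Both genotypes thus carried a Cre recombinase allele at Cx3cr1, so an effect of that allele is shared by all 4 groups. The labels give a Cre of the tamoxifen-dependent type, the series text gives the floxed animals a plain Cre, and neither mentions tamoxifen. No library came from a sham-operated or uninjured mouse, so what the surgery did cannot be told apart from what the impact did. The labels do not state that libraries came from separate animals, so the p values speak only of how much these libraries vary.

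STING is the adaptor protein through which cytosolic DNA, sensed by cGAS, turns on type I interferon and NF-kB target genes. Cx3cr1 is transcribed in microglia, which are the macrophages resident in brain tissue, and in monocytes of the blood, which makes it a common driver of Cre in these cells. A brain injury sets off immediate early genes in neurons and glia, then cytokines and chemokines, and chemokines of the CXC and CC families draw neutrophils and monocytes out of the blood. A difference of responses removes whatever differs between the genotypes equally on both sides, and it adds up the counting and biological spread of all 4 groups.

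Total counts ran from 7.96 M (1e6 counts) in cKO ipsilateral library 3 to 33.6 M. That library stood apart from the others on the second principal component (14.5% of the variance) where the neuronal RNA Bc1 reached 10548 TPM in it and 83028 to 167036 TPM in the rest. The third component (9.95%) set wt contralateral library 3 at its far end. Values without these libraries are given where they change a result. Levels are CPM, each library's counts scaled to a common total of 1e6, responses and differences are log2 fold changes with their SE, and a positive difference means a larger rise, or a smaller fall, in cKO. Unless another tool is named, calls are from edgeR (quasi-likelihood), with p values adjusted over the 16836 genes by Benjamini and Hochberg and a threshold of 0.05.

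No gene passed the test for a difference of the injury responses (0 of 16836 with edgeR, 0%; smallest adjusted p = 0.99987, for mt-Atp6). DESeq2 and limma-voom, with and without sample quality weights, also called 0. At an unadjusted p under 0.05 edgeR found 381 genes (2.26%), 197 with a larger response in cKO (1.17%) and 184 with a smaller one (1.09%), DESeq2 316 and limma-voom 383. With sample quality weights the unadjusted count was 1269. The edgeR count changed most with the wt contralateral libraries: leaving out library 1 gave 631, library 2 gave 252 and library 3 gave 903. One setting did make calls on counts: with no filter on low counts edgeR called 72 genes, and 67 of them belonged to the 16836. Among them, of the genes named by the rule given in the methods, were Ccl3 (edgeR adjusted p = 7.28e-05), Ccl4, Cxcl2, Emp1 (0.0143), Tenm2, Fam160a1, Gm10335, Gm20427, Scand1, mt-Atp6 (1.85e-12) and mt-Co2. The smallest adjusted p in that setting was for Ttr, most of whose reads came from 1 library, and why the filter changes the calls was not tested. The direction of the fitted difference was evenly divided, with 8398 genes (49.9%) above 0.

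Each genotype's own injury response gave a similar number of calls. In wt cortex 460 genes rose (2.73%) and 31 fell (0.184%), and in cKO cortex 431 rose (2.56%) and 30 fell (0.178%). These counts rested on single libraries: the wt total of 491 (2.92%) became 250 without wt contralateral library 2, 281 and 310 without wt ipsilateral library 2 and 3, and 861 without wt contralateral library 3. The cKO total of 461 (2.74%) became 280 without cKO contralateral library 1 and 277 without cKO ipsilateral library 2. Called in both genotypes were 329 genes, all in the same direction. Another 162 were called in wt alone and 132 in cKO alone, and being called on one side of this divide is no evidence of a difference. The fitted response in the other genotype had the same sign for 159 of the 162 and for all 132. The difference itself had an unadjusted p under 0.05 for 23 of the 162 and 26 of the 132 (2.26% of all genes), and no adjusted p passed. Being called in 1 genotype alone picks genes with unequal responses in these libraries, so a raised share follows from the choice.

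Genes that respond to injury were picked by the mean of the genotypes' responses, which favours neither. By that mean 1009 genes rose (5.99%) and 341 fell (2.03%). The total of 1350 (8.02%) was 876 to 2075 when single libraries were left out, lowest without wt ipsilateral library 2 and highest without wt contralateral library 3, and was 883 without cKO contralateral library 1. Over the 1009 genes that rose, the median response was 0.55 in wt and 0.56 in cKO. Their median difference was 0.01 (middle 50% of genes −0.11 to 0.18), and 546 (54.1%) were larger in cKO. For 775 of them (76.8%, beside 76.7% of all genes) the 95% interval of the difference lay within 1 log2 unit of 0. Such an interval holds only differences of less than 2 times between the fold changes of the genotypes. Each interval is for a single gene and is not adjusted for the number of genes. An unadjusted p under 0.05 was found for 40 (3.96%), 27 higher and 13 lower in cKO. Over the 341 genes that fell, the median difference was also 0.01, and 327 intervals (95.9%) lay within 1 log2 unit of 0. Across the 1009 genes the responses of the genotypes had a Pearson r of 0.92, a description over genes that share the same 12 libraries. Picking genes by the mean of the same responses favours such agreement, and over all 16836 genes r was 0.66.

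**Figure D1:**
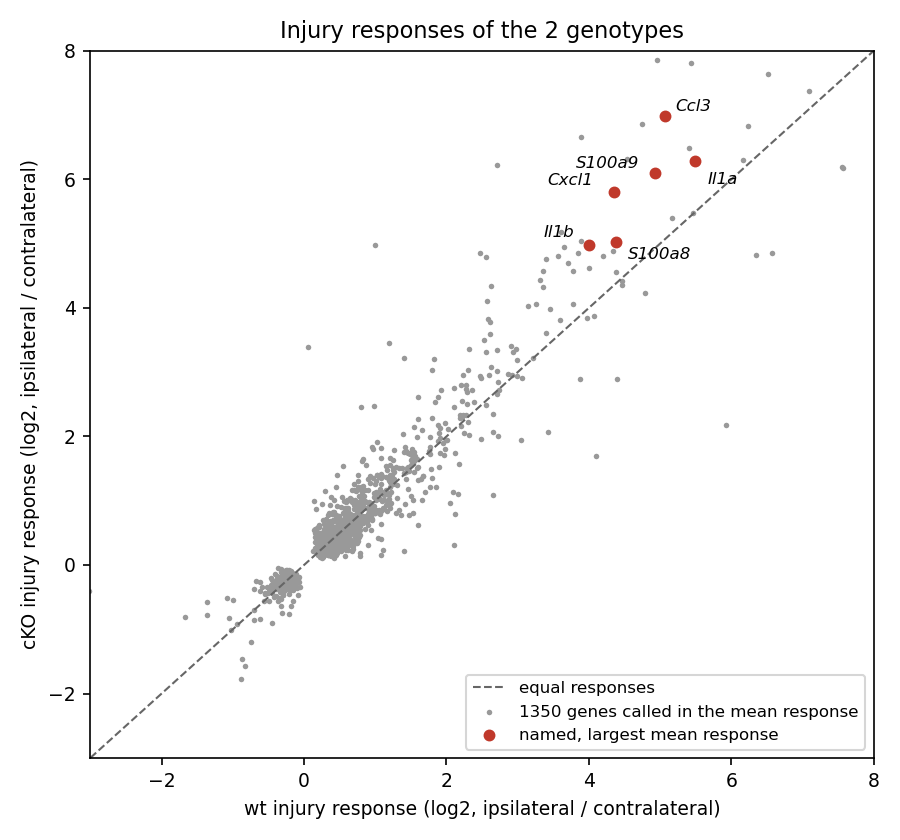
Injury response of each gene in wt (x axis) and cKO (y axis), in log2 units, for the 1350 genes called in the mean of the genotypes' responses; 4 genes lie outside the axes. Points gather along the line of equal responses, which the choice of genes by the mean favours. The scatter around the line is widest among the strongest responses.

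For the targeted gene the difference of responses was smaller than its error. Tmem173, which encodes STING (chr18:35733679-35740554, minus strand of mm10), had 2.49, 2.63 and 3.18 CPM in wt contralateral libraries 1 to 3 and 2.34, 3.69 and 2.72 CPM in wt ipsilateral libraries 1 to 3. It had 0.998, 1.96 and 0.762 CPM in cKO contralateral and 1.05, 2.44 and 1.24 CPM in cKO ipsilateral libraries 1 to 3. The cKO libraries were lower on the contralateral side without overlap, overlapped wt on the ipsilateral side, and all kept reads of the gene. Its response was 0.08 ± 0.33 in wt and 0.39 ± 0.38 in cKO, and the difference was 0.32 ± 0.50 (95% interval −0.74 to 1.38, unadjusted p = 0.531). Without cKO ipsilateral library 2, the highest cKO library, the difference was −0.23. In bulk tissue, fewer cells of a type and less RNA per cell cannot be told apart. Cx3cr1, the fractalkine receptor gene that carries the Cre (chr9:119901616-120069879, minus strand), had 20.6, 21.8 and 24.2 CPM in wt contralateral libraries 1 to 3 and 19.3, 21.8 and 20.8 CPM in wt ipsilateral libraries 1 to 3. It had 18.3, 21.3 and 21.7 CPM in cKO contralateral and 14.1, 19.8 and 18.3 CPM in cKO ipsilateral libraries 1 to 3, and the 4 groups lay close together with cKO ipsilateral library 1 lowest. Its difference was −0.13 ± 0.17 (−0.50 to 0.24). Cx3cr1 overlaps Gm33858 on the other strand, and whether the counting used strand is not given in the sources used here.

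The median fitted difference was largest among the genes that responded most strongly. Among genes with a mean response under 0.5 log2 the median difference was −0.01 (455 genes, 204 larger in cKO), from 0.5 to 1 it was 0.03 (274 genes, 149 larger) and from 1 to 2 it was 0.08 (156 genes, 97 larger). Over the 124 genes with a mean response above 2 it was 0.45 (middle 50% of genes 0.06 to 1.02), and 96 (77.4%) were larger in cKO. Their median response was 2.91 in wt and 3.36 in cKO. The genes share libraries and are not independent, so the difference was also formed from the mean log2 CPM of the 124 genes in each library. That mean was −0.90, −0.59 and −0.82 in wt contralateral and 1.63, 2.40 and 1.97 in wt ipsilateral libraries 1 to 3. It was −1.10, −1.12 and −0.77 in cKO contralateral and 2.27, 2.43 and 1.84 in cKO ipsilateral libraries 1 to 3. The sides were far apart, while the genotypes overlapped on each side. The difference of these means was 0.41 ± 0.32 (SE), close to its own error. Formed in the same way, it was −0.02 ± 0.04 under 0.5 log2, 0.02 ± 0.07 from 0.5 to 1 and 0.02 ± 0.15 from 1 to 2. The median SE of a single gene's difference was 0.15 under 0.5 log2 and 0.80 over the 124 genes.

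With all 12 libraries about as much of this shift sat on the uninjured as on the injured side, but that split rested on single libraries. Over the 124 genes the median log2 level of cKO against wt was −0.19 in contralateral cortex, where 80 genes were lower in cKO, and 0.23 in ipsilateral cortex, where 41 were lower. With single libraries left out, the contralateral median ran from −0.32 (cKO contralateral 3) to −0.12 (wt contralateral 2). The ipsilateral median ran from 0.06 (cKO ipsilateral 2) to 0.41 (wt ipsilateral 2). Contralateral counts of these genes were few: 44 of the 124 had fewer than 9 counts summed over the 3 libraries of some group, and 7 had a group at 0. Below 9 counts a fold change depends on the constant added before taking logs. Over the 80 genes above that floor in every group the median difference was 0.38, and 66 were above 0. Leaving out 1 library moved the median difference over the 124 genes between 0.29 (without wt contralateral library 2) and 0.64 (without wt ipsilateral library 2), and it was 0.51 without cKO ipsilateral library 3. At an unadjusted p under 0.05 stood 12 of the 124, all with a larger response in cKO: Emp1, Rab20, Mcemp1, Ifi207, Cxcl2, Tnf, Lif, Sele, Ccl4, Gpr84, Ccl3 and Spn. In all 12 the cKO mean was lower than wt contralaterally and higher ipsilaterally, a pattern favoured by picking genes by their difference. The genotypes did not overlap on the contralateral side in 6 of the 12 and overlapped on the ipsilateral side in all 12. The share of all genes without such overlap was not taken, so the 6 has no background to be set against. Picking genes by their difference favours such separation as well. Some group held fewer than 9 counts in 6 of the 12.

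Among these 12, Rab20, a small GTPase of endosomes and phagosomes, had 0.311, 0.553 and 0.599 CPM in wt contralateral libraries 1 to 3 and 2.42, 4.12 and 2.22 CPM in wt ipsilateral libraries 1 to 3. It had 0.235, 0.298 and 0.143 CPM in cKO contralateral and 4.54, 3.52 and 3.98 CPM in cKO ipsilateral libraries 1 to 3. The cKO contralateral libraries were all below the wt ones, and the injured sides overlapped, for a difference of 1.53 ± 0.51 (0.45 to 2.62, unadjusted p = 0.00873). Ifi207, an interferon-inducible gene of the AIM2 family, had 0.483, 0.173 and 0.636 CPM in wt contralateral libraries 1 to 3 and 1.07, 1.29 and 1.07 CPM in wt ipsilateral libraries 1 to 3. It had 0.117, 0.17 and 0.0952 CPM in cKO contralateral and 1.12, 1.32 and 1.24 CPM in cKO ipsilateral libraries 1 to 3. Its injured sides differed little between genotypes, the cKO contralateral group held 10 counts in all and lay below the wt group, and the difference was 1.81 ± 0.61 (0.51 to 3.10, unadjusted p = 0.00947). Gpr84, a receptor for medium-chain fatty acids on myeloid cells, had 0.552, 0.587 and 1.12 CPM in wt contralateral libraries 1 to 3 and 10.7, 14.2 and 8.64 CPM in wt ipsilateral libraries 1 to 3. It had 0.499, 0.341 and 0.333 CPM in cKO contralateral and 18.2, 10.3 and 11.2 CPM in cKO ipsilateral libraries 1 to 3. Its cKO contralateral libraries were again all below the wt ones, and the difference was 1.14 ± 0.51 (0.06 to 2.22, unadjusted p = 0.0398).

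Chemokines rose on the injured side in both genotypes, 12 of 15 measured members in wt and the same number in cKO, where 2.73% and 2.56% of all genes rose. Of 18 listed, 15 passed the low-count filter. The median difference of the 15 was 0.69, with 10 above 0, and 0.53 over the 13 with at least 9 counts in every group, beside 0.00 over all genes. Leaving out 1 library moved it between 0.29 (wt contralateral 2) and 1.13 (cKO contralateral 3). Ccl3 (macrophage inflammatory protein 1 alpha, a ligand of Ccr1 that attracts monocytes; chr11:83647844-83649355, minus strand) had 0.138, 1.55 and 0.748 CPM in wt contralateral libraries 1 to 3 and 31, 26.6 and 24.6 CPM in wt ipsilateral libraries 1 to 3. It had 0.0881, 0 and 0.714 CPM in cKO contralateral and 30.2, 24.7 and 36.6 CPM in cKO ipsilateral libraries 1 to 3. The injured sides overlapped between genotypes, and so did the contralateral sides, where counts were 4, 45 and 20 in wt and 3, 0 and 15 in cKO. The Ccl3 response was 5.06 ± 0.42 in wt and 6.99 ± 0.52 in cKO, a difference of 1.93 ± 0.87 (0.08 to 3.78, unadjusted p = 0.0423), and 1.80 without cKO ipsilateral library 3. It was 1.02 without wt contralateral library 2 and 3.98 without cKO contralateral library 3, which held 15 of that group's 18 counts.

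Ccl4, macrophage inflammatory protein 1 beta, had 0, 0.795 and 0.449 CPM in wt contralateral libraries 1 to 3 and 20.6, 17.8 and 16 CPM in wt ipsilateral libraries 1 to 3. It had 0.0294, 0 and 0.238 CPM in cKO contralateral and 20.4, 15.8 and 18.8 CPM in cKO ipsilateral libraries 1 to 3, so the injured sides overlapped and the cKO contralateral group held 6 counts in all, too few for a fold (unadjusted p of the difference 0.0336). Cxcl2, a ligand of the neutrophil receptor Cxcr2, had 0, 0.449 and 0.374 CPM in wt contralateral libraries 1 to 3 and 6.02, 10.2 and 9.3 CPM in wt ipsilateral libraries 1 to 3. It had 0.0294, 0 and 0.0476 CPM in cKO contralateral and 11, 12.9 and 7.21 CPM in cKO ipsilateral libraries 1 to 3, with 2 counts in the whole cKO contralateral group (unadjusted p = 0.0102) and overlap of the injured sides. Cxcl1, the other main Cxcr2 ligand, had 0.138, 0.346 and 0.412 CPM in wt contralateral libraries 1 to 3 and 4.75, 7.85 and 5.88 CPM in wt ipsilateral libraries 1 to 3. It had 0.0881, 0.298 and 0.238 CPM in cKO contralateral and 11.6, 14.5 and 6.22 CPM in cKO ipsilateral libraries 1 to 3. For Cxcl1 the contralateral groups overlapped, cKO ipsilateral libraries 1 and 2 lay above all wt libraries, and library 3 lay among them. Its response was 4.36 ± 0.40 in wt and 5.81 ± 0.42 in cKO, and the difference was 1.45 ± 0.71 (−0.06 to 2.97, unadjusted p = 0.0591). The monocyte attractants Ccl2 and Ccl7 had differences of 1.11 ± 0.68 and 1.24 ± 0.92, and Cxcl10, an interferon-inducible ligand of Cxcr3, 0.80 ± 1.01. Chemokines made by neurons and stroma without injury had differences near 0: −0.06 ± 0.14 for Cx3cl1 (fractalkine), −0.05 ± 0.21 for Cxcl12 and −0.11 ± 0.15 for Cxcl14.

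**Figure D2:**
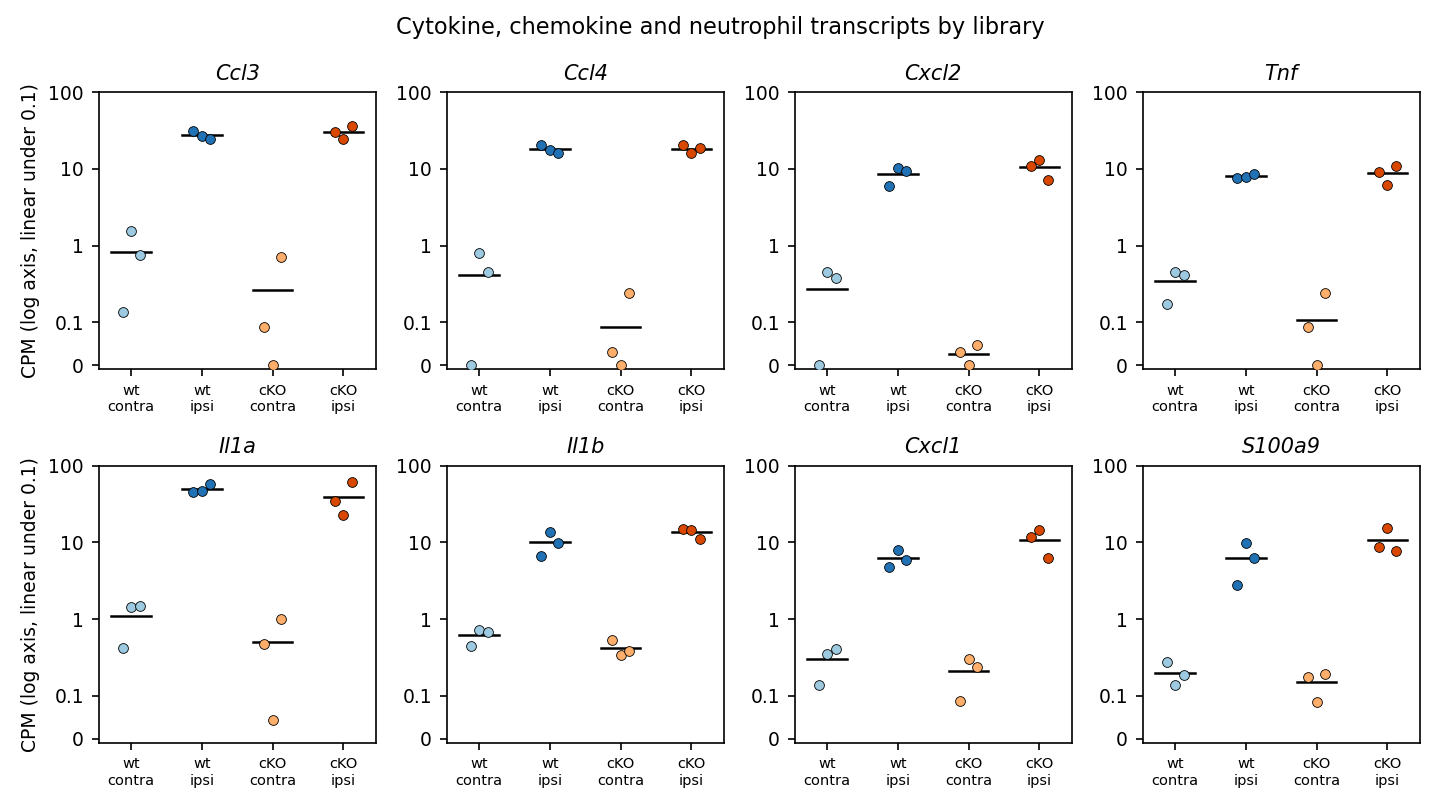
Level in CPM (y axis, logarithmic above 0.1 CPM and linear below) of 8 cytokine, chemokine and neutrophil genes in the 4 groups (x axis); each point is a library and each line the mean of 3. The injured sides of the genotypes overlap for all 8 genes, and the cKO contralateral points of Ccl3, Ccl4, Cxcl2 and Tnf reach 0. The wt contralateral points of Ccl4 and Cxcl2 reach 0 as well.

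Of 28 measured cytokines and NF-kB targets, 22 rose in wt and 24 in cKO (2.73% and 2.56% of all genes). The median difference was 0.19, with 21 of 28 above 0 (0.08 without cKO ipsilateral library 1, 0.30 without wt ipsilateral library 2). Tnf, a cytokine made early by microglia and macrophages, had 0.173, 0.449 and 0.412 CPM in wt contralateral libraries 1 to 3 and 7.66, 7.81 and 8.64 CPM in wt ipsilateral libraries 1 to 3. It had 0.0881, 0 and 0.238 CPM in cKO contralateral and 9.12, 6.21 and 10.9 CPM in cKO ipsilateral libraries 1 to 3. The injured sides overlapped, and the cKO contralateral group held 8 counts (unadjusted p = 0.0216). Il1a, an alarmin of the interleukin-1 family (chr2:129299610-129309972, minus strand), had 0.414, 1.45 and 1.46 CPM in wt contralateral libraries 1 to 3 and 45.6, 45.9 and 57.9 CPM in wt ipsilateral libraries 1 to 3. It had 0.47, 0.0426 and 1.0 CPM in cKO contralateral and 34, 22.5 and 61.8 CPM in cKO ipsilateral libraries 1 to 3. Here cKO libraries 1 and 2 lay below all wt libraries on the injured side and library 3 above them. The difference was 0.79 ± 0.80 (−0.92 to 2.49, unadjusted p = 0.34), and it was 0.36 without cKO ipsilateral library 3. It was 0.30 without cKO contralateral library 2, 1.5 without cKO contralateral library 3 and 1.18 without wt contralateral library 1. Without cKO ipsilateral library 3 and wt contralateral library 3 together it was 0.12.

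Il1b, the secreted interleukin-1 that needs inflammasome cleavage, had 0.449, 0.726 and 0.674 CPM in wt contralateral libraries 1 to 3 and 6.6, 13.6 and 9.67 CPM in wt ipsilateral libraries 1 to 3. It had 0.528, 0.341 and 0.381 CPM in cKO contralateral and 14.9, 14.6 and 11.1 CPM in cKO ipsilateral libraries 1 to 3, and its groups overlapped between genotypes on both sides. Its response was 4.01 ± 0.28 in wt and 4.98 ± 0.30 in cKO, a difference of 0.97 ± 0.47 (−0.02 to 1.97, unadjusted p = 0.0547). Lif, a cytokine of the interleukin-6 family, had 0.104, 1.002 and 0.636 CPM in wt contralateral libraries 1 to 3 and 3.03, 4.55 and 2.1 CPM in wt ipsilateral libraries 1 to 3. It had 0.0587, 0.0852 and 0.381 CPM in cKO contralateral and 6.63, 4.52 and 2.24 CPM in cKO ipsilateral libraries 1 to 3, with the wt contralateral level set mainly by libraries 2 and 3 and overlap on both sides. Its difference was 2.40 ± 0.94 (unadjusted p = 0.0225). Il6 itself, with fewer than 9 counts in a group, and the NF-kB inhibitor Nfkbie (0.56 ± 0.32) were called in cKO and not in wt. The feedback inhibitor Nfkbia and the prostaglandin synthase Ptgs2, both well measured, had differences of 0.21 ± 0.22 and −0.04 ± 0.25. Of 13 inflammasome and lytic cell death genes 4 rose in each genotype (2.73% and 2.56% of all genes), with a median difference of 0.14.

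Immediate early genes, the first wave of transcription after stimulation, rose in both genotypes with differences on both sides of 0. Of 34 measured, 30 rose in wt and 29 in cKO (2.73% and 2.56% of all genes), the median response was 1.46 and 1.36, and the median difference was 0.01 with 18 above and 16 below 0. The differences ran from −0.57 to 0.55, and 28 of the 34 intervals lay within 1 log2 unit of 0. The neuronal activity gene Arc had 131, 137 and 112 CPM in wt contralateral libraries 1 to 3 and 356, 296 and 398 CPM in wt ipsilateral libraries 1 to 3. It had 160.0, 178 and 84.1 CPM in cKO contralateral and 312, 299 and 347 CPM in cKO ipsilateral libraries 1 to 3, with no overlap between sides in either genotype. Its difference was −0.29 ± 0.28 (−0.88 to 0.30), and that of the transcription factor Egr1 was 0.01 ± 0.34 (−0.72 to 0.74). Egr4, a transcription factor of the same family, had the smallest unadjusted p of the list (0.0465), with a difference of −0.57 ± 0.26. It had 112, 112 and 100.4 CPM in wt and 85.9, 92.5 and 94.2 CPM in cKO ipsilateral libraries 1 to 3, so that all cKO libraries were lower on that side. Nr4a2, an orphan nuclear receptor, was called in wt alone, with responses of 1.21 ± 0.31 in wt and 0.88 ± 0.31 in cKO and a difference of −0.32 ± 0.43. Without cKO ipsilateral library 3 the counts were 30 and 26 and the median difference −0.09. The median was −0.11 without wt contralateral library 3, −0.25 without both, and 0.12 without wt contralateral library 1.

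Transcripts of neutrophils rose on the injured side in both genotypes. Of 21 listed markers 14 passed the filter, which a gene can pass through its level on the injured side alone. Of the 14, 12 rose in wt and 13 in cKO (2.73% and 2.56% of all genes). The summed level of the list was 7.91 to 8.55 CPM in wt contralateral and 22.1 to 51.1 CPM in wt ipsilateral libraries. It was 8.52 to 14.4 CPM in cKO contralateral and 33.5 to 87.7 CPM in cKO ipsilateral libraries, so the injured sides overlapped. The median difference was 0.49, with 13 of 14 above 0, and 0.65 over the 7 members with at least 9 counts in every group. It was 0.04 without cKO ipsilateral library 2 and 1.03 without wt ipsilateral library 2, the libraries with the highest summed level in their groups. The wt count of 12 was 7 without wt contralateral library 1 or 2 and 6 without wt ipsilateral library 2. S100a9, which pairs with S100a8 to form calprotectin in neutrophils, had 0.276, 0.138 and 0.187 CPM in wt contralateral libraries 1 to 3 and 2.79, 9.79 and 6.25 CPM in wt ipsilateral libraries 1 to 3. It had 0.176, 0.0852 and 0.19 CPM in cKO contralateral and 8.65, 15.5 and 7.71 CPM in cKO ipsilateral libraries 1 to 3, with overlap between genotypes on both sides and wt ipsilateral library 1 lowest of the injured libraries. Its response was 4.93 ± 0.52 in wt and 6.11 ± 0.54 in cKO, a difference of 1.18 ± 0.98 (−0.91 to 3.26, unadjusted p = 0.247). Its partner S100a8 had a difference of 0.65 ± 1.22, which became −2.01 without wt contralateral library 2. Csf3r, the receptor of the neutrophil growth factor G-CSF, had 0.33 ± 0.29. Lcn2, a neutrophil and reactive astrocyte protein, was the member below 0 (−0.71 ± 0.92).

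Markers of other blood cells rested on few counts or on single libraries. Beside the counts that follow, 2.73% of all genes rose in wt and 2.56% in cKO. Of 13 measured monocyte and macrophage markers (18 listed) 2 rose in wt and 4 in cKO, with a median difference of 0.44 and 11 above 0 (0.10 without cKO ipsilateral library 2). Both counts rested on single libraries: the wt count was 1 without any one of 7 libraries, and the cKO count 2 without cKO contralateral library 1 or cKO ipsilateral library 2. Their summed level was 148 to 152 CPM and 144 to 191 CPM in wt contralateral and ipsilateral libraries, and 138 to 151 CPM and 172 to 188 CPM in cKO. The scavenger receptor Msr1 had the smallest p of that list (0.00118), with 3 counts in the cKO contralateral group. Msr1 had 0.123, 0.343 and 0.494 CPM in wt and 0.396, 0.481 and 0.498 CPM in cKO ipsilateral libraries, which overlapped. Of 11 platelet transcripts 4 rose in wt and 2 in cKO, with a median difference of −0.28 and 6 below 0, and of −0.08 with 4 of 8 above 0 over members with at least 9 counts in every group. It was −0.14 without cKO contralateral library 2 (4 rose in cKO without wt contralateral library 3). Summed levels were 17.4 to 25.7 CPM in wt and 16.3 to 19.2 CPM in cKO ipsilateral libraries. Ppbp, a chemokine stored in platelets, had 1.11, 3.78 and 2.14 CPM in wt and 0.973, 2.08 and 1.74 CPM in cKO ipsilateral libraries, with overlap and 2 counts in the wt contralateral group. Erythroid transcripts rose in 3 of 8 cases in wt and 5 in cKO, and their median difference of 0.90 was −0.19 without wt contralateral library 1 and 2.81 without cKO contralateral library 3. Left-out libraries moved these counts between 1 and 5 in both genotypes. Their summed level was 263 to 535 CPM and 852 to 2318 CPM in wt contralateral and ipsilateral libraries, and 269 to 338 CPM and 894 to 1158 CPM in cKO. The beta-globin gene Hbb-bs ran from 0.486 to 102 CPM within the wt contralateral group alone, and RSEM divides reads between near-identical globin genes. How far blood left in the tissue bears on the leukocyte values was not tested. Of 14 lymphocyte markers 2 passed the filter, with differences of 0.05 ± 0.54 (Cd4) and 0.08 ± 0.71 (Cd79a).

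In the vessel wall, 8 of 19 genes of endothelial activation rose in wt and 13 in cKO (2.73% and 2.56% of all genes), and the median difference was 0.13, with 11 above 0. The 5 called in cKO alone were Vcam1 and Sele, which bind leukocytes, the proteases Adamts4 and Adamts9, and Plat, the tissue plasminogen activator. Their differences did not pass: 0.31 ± 0.20 for Vcam1, 0.26 ± 0.25 for Adamts4, 0.12 ± 0.21 for Plat and 0.86 ± 0.31 for Adamts9 (unadjusted p = 0.0151). Adamts9 had 1.38, 1.94 and 2.54 CPM in wt contralateral libraries 1 to 3 and 2.09, 2.49 and 2.59 CPM in wt ipsilateral libraries 1 to 3. It had 1.88, 1.66 and 1.76 CPM in cKO contralateral and 4.18, 4.004 and 3.48 CPM in cKO ipsilateral libraries 1 to 3, so that the cKO injured side lay above every other library. Sele, which encodes E-selectin, had 0.246, 0.3004 and 0.699 CPM in wt and 1.66, 1.4 and 0.622 CPM in cKO ipsilateral libraries, which overlapped, from 5 and 1 counts contralaterally (unadjusted p = 0.0286). The strongly induced Icam1, Adamts1 and Apold1 had differences of 0.38 ± 0.32, 0.13 ± 0.23 and −0.07 ± 0.16. Markers of endothelial and mural cells as such had a median difference of −0.02, and 19 of 20 intervals were within 1 log2 unit of 0.

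Emp1, an epithelial membrane protein listed among reactive astrocyte genes (chr6:135362545-135383173, plus strand), was the strongly induced gene with the smallest p. It had 2.52, 2.73 and 2.92 CPM in wt contralateral libraries 1 to 3 and 12.9, 19.8 and 17.4 CPM in wt ipsilateral libraries 1 to 3. It had 1.26, 1.7 and 2.33 CPM in cKO contralateral and 25.4, 18.3 and 17.8 CPM in cKO ipsilateral libraries 1 to 3. The cKO libraries lay below all wt libraries contralaterally and overlapped them ipsilaterally. Its response was 2.62 ± 0.21 in wt and 3.59 ± 0.22 in cKO, a difference of 0.97 ± 0.31 (0.32 to 1.63, unadjusted p = 0.00647), and 1.05 without cKO ipsilateral library 3. Of the 22 reactive astrocyte genes 5 rose in wt and 6 in cKO, beside 2.73% and 2.56% of all genes. The counts were 6 and 10 without cKO ipsilateral library 3, and 3 in wt without wt contralateral or ipsilateral library 2. The median difference was 0.18, with 17 above 0. Gfap, the astrocyte intermediate filament, had 121, 143 and 122 CPM in wt contralateral libraries 1 to 3 and 110.4, 157 and 110.2 CPM in wt ipsilateral libraries 1 to 3. It had 154, 128 and 116 CPM in cKO contralateral and 189.6, 166 and 142 CPM in cKO ipsilateral libraries 1 to 3, and the sides overlapped in both genotypes. Its difference was 0.36 ± 0.20 (−0.08 to 0.79). Astrocyte identity markers rose in 6 of 15 cases in wt (3 without either contralateral library 2 or ipsilateral library 3 of wt) and 1 in cKO, yet their differences were small: the median was −0.07, the range −0.21 to 0.04, and all 15 intervals lay within 1 log2 unit of 0. The glutamate transporter Slc1a2 had responses of 0.27 ± 0.10 in wt and 0.22 ± 0.10 in cKO.

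Genes of microglia, the cells that transcribe Cx3cr1 in brain, gave no call for the difference. Over 22 homeostatic microglia markers the median difference was −0.07, with 16 below 0, and 20 of the 95% intervals lay within 1 log2 unit of 0. The median was 0.001 without cKO ipsilateral library 1 and −0.17 without cKO ipsilateral library 2 or wt ipsilateral library 1. Tmem119 was the 1 member that fell in each genotype (−0.71 ± 0.13 in wt and −0.69 ± 0.13 in cKO; difference 0.01 ± 0.19). The colony-stimulating factor receptor Csf1r had a difference of −0.12 ± 0.13. Gpr34, a lysophosphatidylserine receptor, was at −0.61 ± 0.27 (unadjusted p = 0.0421). It had 7.35, 7.81 and 11 CPM in wt contralateral libraries 1 to 3 and 10.2, 9.23 and 8.85 CPM in wt ipsilateral libraries 1 to 3. It had 6.96, 8.57 and 8.14 CPM in cKO contralateral and 4.87, 7.33 and 3.86 CPM in cKO ipsilateral libraries 1 to 3, so the cKO injured side lay below the wt injured side in all libraries. Over 14 disease-associated microglia genes the median difference was 0.07.

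No member of the STING pathway or of the type I interferon targets passed in wt, in cKO or for the difference. Over all genes 2.92% passed in wt, 2.74% in cKO and 0% for the difference. In lists of 16 and 29 measured genes, 0 calls is near these shares. Of 16 measured STING and DNA-sensing genes 8 were above and 8 below 0 (median −0.02), from −0.92 ± 0.48 for the DNA sensor Cgas to 0.57 ± 0.94 for Ifi204, a DNA-binding protein. The downstream factor Irf3 was at −0.06 ± 0.21 and the kinase Tbk1 at 0.02 ± 0.11. Of 29 type I interferon targets (32 listed) 12 were above and 17 below 0 (median −0.05). Rsad2, the antiviral enzyme viperin, had the smallest unadjusted p of the list (0.0387), with a difference of −0.84 ± 0.37. It had 0.898, 1.17 and 1.42 CPM in wt contralateral libraries 1 to 3 and 2.17, 2.45 and 1.44 CPM in wt ipsilateral libraries 1 to 3. It had 1.64, 1.7 and 1.38 CPM in cKO contralateral and 1.73, 1.48 and 1.24 CPM in cKO ipsilateral libraries 1 to 3, and the wt injured side reached above every other library in libraries 1 and 2. Stat2, with a smaller SE, was near 0 (0.02 ± 0.13), and Isg15, with an SE close to that of Rsad2, was at 0.07 ± 0.38. Of the 95% intervals, 9 of 16 and 17 of 29 lay within 1 log2 unit of 0, and for the rest a larger difference lay within the interval. Of 23 interferon gamma and IRF1 targets 5 rose in wt (2 without wt ipsilateral library 2 or 3, 3 without wt contralateral library 2) and 2 in cKO (4 without cKO contralateral library 3), with a median difference of 0.01. Over all genes 2.73% rose in wt and 2.56% in cKO. The class I antigen presentation genes B2m and H2-K1, called in wt alone, had differences of −0.18 ± 0.11 and −0.18 ± 0.20.

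Stress programmes had median differences between 0.00 and 0.14. Heat shock chaperones had a median difference of 0.12 (14 of 16 above 0), unfolded protein and integrated stress response genes 0.00 (17 genes), hypoxia targets 0.03 (17) and targets of the antioxidant factor NRF2 0.02 (14). Ppp1r15a, which lets translation resume after stress, had a difference of 0.33 ± 0.14 (unadjusted p = 0.0378), and the integrated stress factor Atf4 0.00 ± 0.12. Glucocorticoid targets had a median of 0.14, with 17 of 22 above 0. They rose in 6 cases in wt (3 without wt ipsilateral library 2) and 8 in cKO, beside 2.73% and 2.56% of all genes. Among them the metal-binding protein Mt2 had 55.2, 62.1 and 57.9 CPM in wt contralateral libraries 1 to 3 and 70.1, 90.1 and 70.4 CPM in wt ipsilateral libraries 1 to 3. It had 64.3, 61.1 and 55.5 CPM in cKO contralateral and 113, 106 and 92.3 CPM in cKO ipsilateral libraries 1 to 3, and the cKO injured side lay above all other libraries. Its response was 0.40 ± 0.10 in wt and 0.79 ± 0.10 in cKO, a difference of 0.39 ± 0.15 (0.08 to 0.70, unadjusted p = 0.0179). Of the 17 clock genes 13 were below 0 (median −0.07), while Per1, which light, activity and glucocorticoids induce, was at −0.01 ± 0.11 with responses of 0.72 ± 0.08 in wt and 0.71 ± 0.08 in cKO.

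Markers of neurons and of neighbouring brain regions were compared to check the dissected tissue, and the cortical markers were present in all groups. Excitatory cortical neuron markers, which define the labelled tissue, had a median difference of −0.07 (11 of 16 below 0), with the vesicular glutamate transporter Slc17a7 at −0.06 ± 0.08 and the kinase Camk2a at −0.16 ± 0.10. Interneuron markers had −0.08, and striatal markers −0.22 with 10 of 12 below 0 (−0.41 without wt ipsilateral library 3, −0.09 without wt ipsilateral library 2). Striatal Ppp1r1b, a dopamine-regulated phosphatase inhibitor, was at −0.27 ± 0.17. Hippocampal, thalamic and choroid plexus markers had a median of −0.23, with 10 of 12 below 0. Ttr, the choroid plexus transport protein, had 0.0345, 1.14 and 3.85 CPM in wt contralateral libraries 1 to 3 and 0.0819, 37.3 and 1.56 CPM in wt ipsilateral libraries 1 to 3, and 2.96, 6.35 and 0.381 CPM in cKO contralateral and 0.865, 0 and 0 CPM in cKO ipsilateral libraries 1 to 3. A single library, wt ipsilateral 2, held most of its reads. Oligodendrocyte and myelin genes had a median of 0.06 (11 of 12 above 0), with myelin basic protein Mbp at 0.05 ± 0.22. Meningeal markers had 0.07, and 3 of 18 fell in wt and 0 in cKO (0.184% and 0.178% of all genes). Among these Myoc (myocilin) had 33.7, 34.7 and 27.5 CPM in wt contralateral libraries 1 to 3 and 15.3, 17.8 and 23.3 CPM in wt ipsilateral libraries 1 to 3. It had 24.3, 24.7 and 33.5 CPM in cKO contralateral and 22.2, 33.7 and 22.3 CPM in cKO ipsilateral libraries 1 to 3. The wt sides did not overlap and the cKO sides did, for a difference of 0.71 ± 0.26 (unadjusted p = 0.0159). The part of dissection in any difference was not tested.

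**Figure D3:**
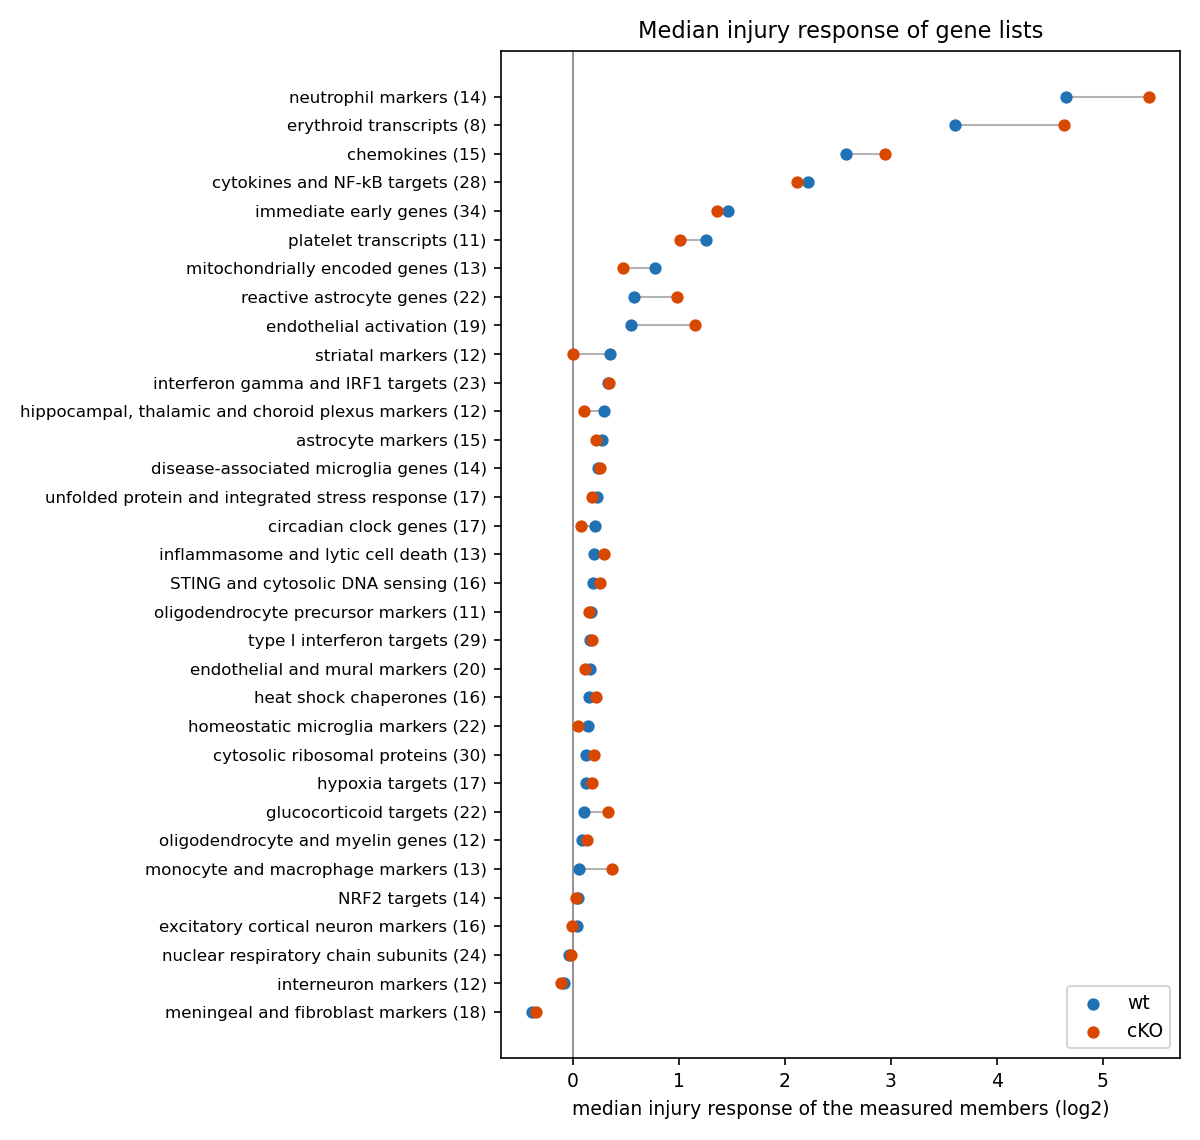
Median injury response (x axis, log2) of the measured members of 33 gene lists (y axis, number of members in brackets) in wt and cKO, joined by a line for each list. Neutrophil, erythroid and chemokine lists have the highest medians in both genotypes, and for most lists the points of the genotypes lie close together.

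A gene encoded by mitochondrial DNA, mt-Atp6, had the smallest unadjusted p of all genes tested, in the direction of a smaller response in cKO. Of the 13 listed genes of mitochondrial DNA, which make subunits of the respiratory chain, 10 rose in wt and 3 in cKO (2.73% and 2.56% of all genes). The median response was 0.78 in wt and 0.47 in cKO, and the median difference −0.28 with 11 below 0. For the difference 3 had an unadjusted p under 0.05, and no adjusted p passed. Nuclear genes for the respiratory chain did not follow, with a median of 0.05 and all 24 intervals within 1 log2 unit of 0. mt-Atp6, a subunit of ATP synthase (chrM:7927-8607, plus strand), had 399, 505 and 541 CPM in wt contralateral libraries 1 to 3 and 855, 1074 and 1174 CPM in wt ipsilateral libraries 1 to 3. It had 550.0, 684 and 646 CPM in cKO contralateral and 723, 892 and 595 CPM in cKO ipsilateral libraries 1 to 3. The wt sides did not overlap, contralateral levels were higher in cKO than in wt without overlap, and the cKO ipsilateral libraries reached into the cKO contralateral range, for a difference of −0.87 ± 0.21 (−1.32 to −0.42, unadjusted p = 0.000954), and −0.74 without cKO ipsilateral library 3. mt-Co2, a cytochrome oxidase subunit, had a difference of −0.72 ± 0.20 (−1.14 to −0.30, unadjusted p = 0.00249), although it rose in both genotypes (1.53 ± 0.14 in wt and 0.81 ± 0.14 in cKO).

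These values depended on how reads were divided between mitochondrial genes and a copy of mitochondrial DNA on chromosome 1. Of the stretches of 31 bases in mt-Atp6, 99.5% also lie in the nuclear gene Gm10925 (chr1:24613974-24614651), and the copy was given 88.8% of the pair's counts. For mt-Co2 the copy Gm28661 (chr1:24614885-24615565) took 91.3%. With gene and copy summed, an alternative chosen after the data were seen, mt-Atp6 had 4745, 4574 and 6069 CPM in wt contralateral and 8686, 9114 and 8780.4 CPM in wt ipsilateral libraries 1 to 3. The sum was 4846, 5322 and 4926 CPM in cKO contralateral and 5714, 8807 and 4781 CPM in cKO ipsilateral libraries 1 to 3. On the injured side cKO library 2 reached the wt libraries, and libraries 1 and 3 lay near the contralateral level. The summed difference was −0.43 (−0.92 to 0.06) for mt-Atp6 and −0.17 (−0.54 to 0.19) for mt-Co2. The other 3 pairs moved as well: mt-Nd3 went from −0.65 to −0.40, mt-Co3 from −0.10 to −0.39 and mt-Nd4l from 0.47 to −0.05. After summing, 12 of 13 were below 0, the median remained −0.28, 1 (mt-Nd3) had an unadjusted p under 0.05 (0.0195), and 10 rose in wt and 1 (mt-Cytb) in cKO. mt-Nd1, which shares no stretch of 31 bases with another gene, was at −0.30 ± 0.19 (−0.72 to 0.11).

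The 13 genes and their copies took 5.86%, 5.88% and 6.94% of counts in wt contralateral and 9.08%, 10.5% and 9.99% in wt ipsilateral libraries 1 to 3. They took 5.65%, 6.24% and 5.6% in cKO contralateral and 6.84%, 9.78% and 6.63% in cKO ipsilateral libraries 1 to 3. The wt injured side averaged 9.87% ± 0.739 (SD, n = 3) and the cKO injured side 7.75% ± 1.76 (SD, n = 3), with cKO library 2 inside the wt range. The median difference of the list was −0.47 without cKO ipsilateral library 2 and −0.15 without cKO ipsilateral library 1. The wt count of 10 was 5 and 4 without wt contralateral library 1 and 2 and 5 and 6 without wt ipsilateral library 2 and 3, and the cKO count of 3 was 6 without cKO ipsilateral library 1. Without cKO ipsilateral library 3 the median was −0.20.

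**Figure D4:**
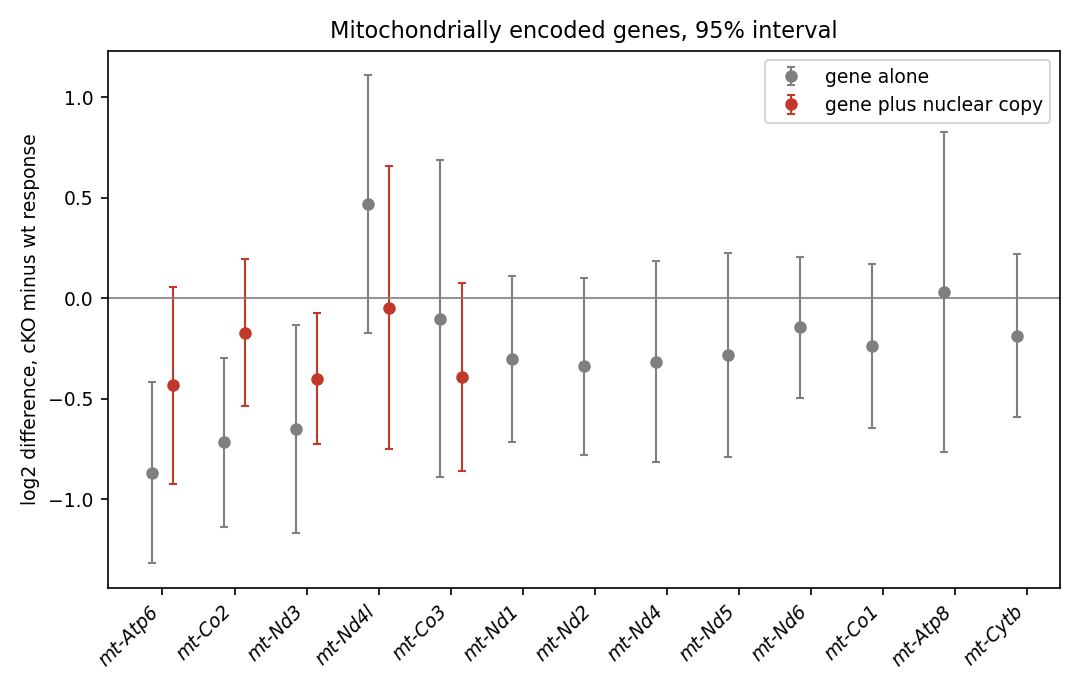
Difference of the injury responses (y axis, log2, cKO minus wt) with its 95% interval for the 13 mitochondrially encoded genes (x axis), for the gene alone and, for the first 5, for the gene plus its nuclear copy. Summed values of the first 5 lie between −0.43 and −0.05, and the intervals of all summed genes but mt-Nd3 include 0.

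Beyond these lists, the genes of smallest p with a mean of at least 1 CPM were of mixed kinds, and none had an adjusted p under 0.05. Larger in cKO was Tenm2, a teneurin that binds latrophilins across the synapse (chr11:36006656-37235964, minus strand). It had 51.2, 75.8 and 62.4 CPM in wt contralateral libraries 1 to 3 and 46.6, 52.5 and 50.4 CPM in wt ipsilateral libraries 1 to 3. It had 61, 58 and 56.5 CPM in cKO contralateral and 70.6, 80.9 and 59.5 CPM in cKO ipsilateral libraries 1 to 3, and the sides overlapped in each genotype, while on the injured side all cKO libraries lay above all wt libraries. Its difference was 0.62 ± 0.18 (0.24 to 1.0, unadjusted p = 0.00362). Emp1 is described above. The others were Efcab2 (0.48 ± 0.14), an EF-hand protein of motile cilia, Chn2 (0.40 ± 0.12), a GTPase-activating protein for Rac, the protocadherin Pcdhgb6 (0.39 ± 0.12), the centrin Cetn4 (0.55 ± 0.17), Dpysl5 (0.51 ± 0.16), a collapsin response mediator protein of growing neurites, Fam160a1 (0.94 ± 0.30) and Ccer2 (1.11 ± 0.35). Gm1043 (0.67 ± 0.22) overlaps Jakmip1 on its strand and Gm45133 (0.70 ± 0.22) overlaps Ccdc106 on the other, so their reads are uncertain, as are those of Pcdhgb6, which shares 57.9% of its 31-base stretches with other genes of its cluster. Cetn4, Chn2 and Ccer2 overlap genes on the other strand. The largest value, 4.81 ± 1.35 for Gm10335, belongs to a gene of which 92.9% of 31-base stretches lie in the ribosomal protein gene Rpl23a, and summed with it the difference was 0.24. All these genes but Emp1 and Gm10335 had responses within 1 log2 unit of 0 in both genotypes.

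Smaller in cKO, beside mt-Atp6 and mt-Co2, was Tmem230, a membrane protein of secretory vesicles. It had 19.8, 17.9 and 17.7 CPM in wt contralateral libraries 1 to 3 and 20.4, 20.2 and 19.5 CPM in wt ipsilateral libraries 1 to 3. It had 18.8, 20.2 and 19.95 CPM in cKO contralateral and 15.7, 16.1 and 16.2 CPM in cKO ipsilateral libraries 1 to 3. The cKO injured side lay below every other library, for a difference of −0.42 ± 0.12 (−0.67 to −0.17, unadjusted p = 0.00277). Scand1, a SCAN domain protein, had 10.3, 5.32 and 7.18 CPM in wt contralateral libraries 1 to 3 and 14.2, 18.8 and 15.6 CPM in wt ipsilateral libraries 1 to 3. It had 11.5, 16.1 and 17 CPM in cKO contralateral and 16.3, 16.6 and 16.7 CPM in cKO ipsilateral libraries 1 to 3, so the wt contralateral group stood below the 3 others, and the difference was −0.93 ± 0.28 (unadjusted p = 0.00472). Rasd2, a small GTPase enriched in striatum, had 111, 81.6 and 88.8 CPM in wt contralateral libraries 1 to 3 and 104, 101 and 105 CPM in wt ipsilateral libraries 1 to 3. It had 92.3, 95.3 and 89.1 CPM in cKO contralateral and 78.3, 74 and 81.1 CPM in cKO ipsilateral libraries 1 to 3. The cKO injured side was below all other libraries, and the difference was −0.39 ± 0.13 (unadjusted p = 0.00885). Rxrg (−1.08 ± 0.35), a retinoid receptor on the striatal list, Cnih2 (−0.29 ± 0.09), an auxiliary subunit of AMPA receptors, Lipo3 (−0.68 ± 0.20), with 38.8% of its 31-base stretches in other genes, and Gm765 (−0.71 ± 0.21) were the further genes. Scand1, Cnih2 and Gm765 overlap genes on the other strand. Gm20427 (−1.39 ± 0.34) overlaps H2-Ke6 and Slc39a7 on its strand. Gm9774 (−0.84 ± 0.27) shares 91.2% of its 31-base stretches with Adrm1 and was at 0.00 when summed with it.

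**Figure D5:**
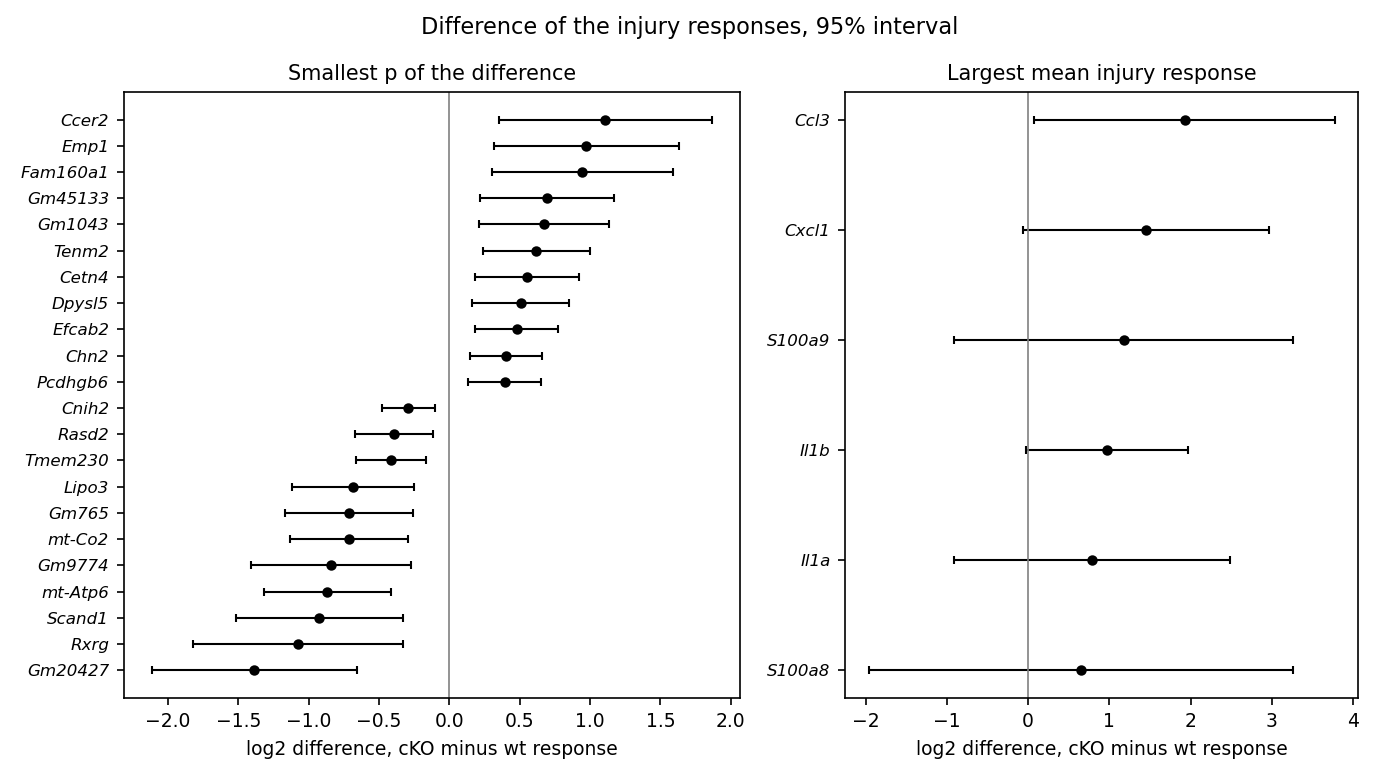
Difference of the injury responses (x axis, log2, cKO minus wt) with its 95% interval for genes of the smallest p that the text gives, without Gm10335 (left), and for strongly induced genes with at least 9 counts in every group (right). Intervals on the left exclude 0 by the choice of genes, and most of those on the right include 0.

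Few genes moved in opposite directions. Sides that did not overlap in either genotype and pointed the same way were found for 793 genes higher (4.71%) and 447 lower (2.66%) on the injured side. Opposite directions were found for 15 genes that were lower in wt and higher in cKO (0.0891%) and 17 that were higher in wt and lower in cKO (0.101%), and 20 of these 32 had a mean of at least 1 CPM. The examples that follow were chosen after their values were seen. Efcab2 had 11.8, 12.9 and 13.2 CPM in wt contralateral libraries 1 to 3 and 11.7, 10.1 and 11.5 CPM in wt ipsilateral libraries 1 to 3. It had 9.95, 10.5 and 9.52 CPM in cKO contralateral and 12.4, 12.3 and 11.8 CPM in cKO ipsilateral libraries 1 to 3, with the injured side below the other in wt and above it in cKO. Smarcd3, a subunit of the BAF chromatin remodelling complex, had 49.1, 48.8 and 47.7 CPM in wt contralateral libraries 1 to 3 and 53.9, 54.1 and 50.6 CPM in wt ipsilateral libraries 1 to 3, and 49.5, 49.9 and 52.1 CPM in cKO contralateral and 44, 43.3 and 48.8 CPM in cKO ipsilateral libraries 1 to 3. Its difference was −0.29 ± 0.10 (unadjusted p = 0.0107). Brf1, a factor for RNA polymerase III, had a difference of 0.29 ± 0.12, the helicase Dhx57 −0.22 ± 0.10 and the exosome subunit Exosc3 −0.44 ± 0.17. In none of the 32 did the difference pass the test.

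How large a difference could have been seen depended on the level of a gene. The distance from the estimate to the end of its 95% interval had a median of 1.34 log2 units below 1 CPM (2340 genes), 0.63 from 1 to 10 CPM (4630 genes), 0.31 from 10 to 100 CPM (7701 genes) and 0.23 at 100 CPM or more (2165 genes). Intervals within 1 log2 unit of 0 were found for 1.07%, 67.2%, 98.9% and 99.4% of these genes, and for 12909 genes (76.7%) in all. For well-expressed genes, differences of more than 2 times between the fold changes were thus outside the interval. Of the 124 genes with a mean response above 2, 24 had such an interval, as did 15 of 28 cytokines and NF-kB targets, 6 of 15 chemokines and 2 of 14 neutrophil markers. For the other members a difference of that size lay within the interval.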

How the data were processed

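RNA was extracted from mouse cortex with Trizol and a column clean-up and made into libraries with a stranded mRNA kit, per the labels' protocols. The submitters' processing notes name Trim Galore 0.6.4, STAR 2.7.1a, RSEM 1.2.28, DESeq2 1.36.0 and the mm10 build; the annotation and strand setting are not given in the sources used here. The authors deposited estimated counts per gene, given as whole numbers, and TPM, which is scaled within each library.

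The deposited counts were filtered with filterByExpr (minimum count 10, minimum total 15), scaled by TMM and fitted with edgeR 4.0.16 (R 4.3.3) by quasi-likelihood with 4 group means. The difference of responses was a contrast of these, SE was the log2 value divided by the square root of F, and p-values were adjusted over 16836 genes. Such an SE, and the interval built on it, is approximate for strongly induced genes with few contralateral counts. For Ccl3 the SE of the difference (0.87) is larger than the SEs of the wt and cKO responses (0.42 and 0.52) would combine to. Alternatives used DESeq2 1.42.0, limma 3.58.1, other scalings and filters, TPM, replicate blocks and leaving out each library. The fit was also run on simulated counts, whose outcome is not reported here. Those counts had no injury response shared by the genotypes and a spread set by formula. They therefore do not speak for strongly induced genes with few contralateral counts. Symbols came from GENCODE M21 (55227 IDs, 99.5%), whose coordinates are of mm10. Copies were genes sharing stretches of 31 bases.

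The comparison, the 34 gene lists and the tests were chosen with earlier results of these data known. Named were Tmem173, Cx3cr1, up to 12 genes of smallest p in each direction with a mean of at least 1 CPM, 12 genes of largest mean response, and of each list the called members and up to 3 of highest level. Other list members were chosen after their values were seen. A few genes that meet these rules are not reported here. Counting precision limits the deepest library to a floor of 0.0894 CPM and the shallowest to 0.377 CPM (3 counts).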

Additional observations from a re-analysis of the deposited data

How the results depend on the processing

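No gene was called for the difference under the other settings run except these: 72 with no low-count filter and 1 with limma on log2(TPM + 1). The latter was Snord15b (log2 5.44, limma adjusted p = 3.95e-06), with 1, 2 and 1 counts in cKO ipsilateral libraries and 0 elsewhere. Leaving out 1 library gave 0 calls each time. With no low-count filter wt had 991 calls and cKO 968, and the DESeq2 test gave wt 766. Sample quality weights gave 1660 in wt, 921 in cKO and 3069 in the mean response. limma on TPM gave 139, 174 and 404, and a median difference over injury-responsive genes of 0.15, where TPM shifted the median of all genes by 0.143. Without cKO ipsilateral library 3 and wt contralateral library 3 together wt had 968. Single libraries left out gave 250 to 861 calls in wt, 277 to 579 in cKO and 876 to 2075 in the mean response, a median difference of −0.01 to 0.05 over injury-responsive genes and 0.29 to 0.64 over the strongest. Values that changed sign were Tmem173 (−0.23 without cKO ipsilateral library 2, and up to 0.78 with other libraries left out), Cx3cr1 (0.0206 on TPM, and −0.26 to 0.0149 with 1 library left out), S100a8 (−0.28 with limma-voom, −2.01 without wt contralateral library 2, and 1.28 without cKO ipsilateral library 3 and wt contralateral library 3) and Gm13610. Gm13610, with a group at 0 counts, was at −1.53 with limma-voom, −0.64 with quality weights, −1.13 on TPM, −1.28 without cKO ipsilateral library 3 (up to 3.03 with other libraries left out) and −0.72 without both libraries; the cause was not tested.

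Whether replicate numbers pair the sides is not stated by the labels and was not settled here. Correlations of same-numbered libraries, after removal of group means, were low: −0.002 to 0.094 in wt and 0.057 to 0.092 in cKO. Each ipsilateral library correlated best with the contralateral library of its own number, except wt ipsilateral library 1, which correlated best with number 3. The main fit did not pair the sides. A replicate block within genotype gave 0 calls for the difference, 567 in wt, 533 in cKO and 1484 in the mean response, and a block shared by genotypes gave 0, 501, 490 and 1355.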
